A study of Mus musculus with 6 samples.

Results

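The core circadian clock genes were followed in the adult mouse cerebral cortex, as 10 genes chosen by name out of 55450 genes counted. They are the activators Arntl (also called Bmal1), Clock and Npas2, the period genes Per1, Per2 and Per3, the nuclear receptors Nr1d1 and Nr1d2 (the REV-ERB repressors), and the clock-controlled genes Dbp and Ciart (also called Chrono). All 10 had reads in every library and all 10 passed the filter on low counts, which left 27939 genes for the test. Polyadenylated RNA was sequenced in 6 libraries, 3 heterozygous for Setd5 and 3 wild type. The labels give neither the altered part of Setd5 nor the strain, sex, exact age or hour of collection of the animals, and do not say whether each library is a different animal. A p-value here thus speaks of library-to-library spread alone, some of which may be technical.

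In mammalian cells the clock is a feedback loop of transcription. ARNTL pairs with CLOCK or NPAS2 and switches on the Per genes, Nr1d1, Nr1d2, Dbp and Ciart through DNA sites called E-boxes. PER proteins, with CRY proteins, and CIART then restrain ARNTL and its partner, while the REV-ERB proteins repress Arntl. In rodents Arntl messenger RNA is therefore high around dawn, when the genes it drives are low, and the driven genes are high from midday to dusk. The cortex holds such a clock in its own cells, set by the suprachiasmatic nucleus of the hypothalamus. Because the hour of collection is not in the labels, a library's place in the daily cycle and an effect of genotype cannot be told apart for these genes.

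Promoters of the clock genes were searched for the motifs of the loop, and 4 stretches are printed here, as examples of the 7 members with a match: Ciart and Per3 for their repeated motifs, Per1 for its E-box and Arntl for the REV-ERB element. RefSeq promoter windows on GRCm38.p6, from 250 bases before to 50 after a start of transcription, were matched for 9 of the 10 genes (13 windows, Per2 not among them). Each stretch is given 5′ to 3′ along the gene's strand, with the matched letters in capitals. In Ciart the capitals mark the E-box CACGTG, which reads the same on either strand, at 3 places. In Per1 they mark 1 E-box. In Per3 they mark the D-box TTATGTAA, the site of DBP and its relatives, at 2 places. The Ciart, Per1 and Per3 stretches run from base -250 to base -31, counted from the window's start of transcription, and hold no annotated exon. Per1 had 2 windows, and the start used here lies inside the annotated gene. The Per1 stretch is thus within the span of Per1 given below, not before it. In Arntl the 30 bases printed lie inside its own transcribed exon from base 20 to base 49, and the capitals mark AGGTCA, the core of the element that REV-ERB and ROR proteins share.
Ciart, chr3:95882259-95882478, minus strand: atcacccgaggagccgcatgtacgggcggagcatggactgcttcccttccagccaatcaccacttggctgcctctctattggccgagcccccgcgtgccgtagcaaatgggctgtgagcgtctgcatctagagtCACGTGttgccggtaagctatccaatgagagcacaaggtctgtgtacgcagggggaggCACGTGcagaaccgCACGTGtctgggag
Per1, chr11:69098699-69098918, plus strand: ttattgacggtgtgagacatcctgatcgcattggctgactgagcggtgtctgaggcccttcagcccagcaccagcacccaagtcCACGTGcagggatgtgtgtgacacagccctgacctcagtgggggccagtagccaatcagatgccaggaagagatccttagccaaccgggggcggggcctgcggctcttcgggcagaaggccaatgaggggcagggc
Per3, chr4:151044696-151044915, minus strand: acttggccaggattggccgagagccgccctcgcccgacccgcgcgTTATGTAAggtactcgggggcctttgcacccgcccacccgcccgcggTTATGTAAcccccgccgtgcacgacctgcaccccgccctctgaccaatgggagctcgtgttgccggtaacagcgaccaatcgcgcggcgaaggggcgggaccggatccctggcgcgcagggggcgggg
Arntl, chr7:113207530-113207559, plus strand: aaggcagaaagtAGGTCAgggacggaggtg

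The E-box CACGTG was present in the windows of 2 of the 9 genes, Ciart and Per1, and in 7.15% of all 32851 windows in the table. A window with 3 or more of them, as in Ciart, was found in 29 cases, or 0.0883%. All motifs were searched on both strands. Shares are per window, while Clock had 3 windows and Arntl and Per1 had 2 each. Counts of genes are therefore not on the same scale as these shares. The variant CACGTT was found in Nr1d1 and in 4.68% of all windows. TTATGTAA was present in 0.938% of windows. AGGTCA was present in 1 or more windows of Arntl, Clock, Nr1d2 and Per1 and in 16.3% of all windows. The Per1 stretch above holds that match on its other strand, in lower case, at bases -137 to -132. The windows of Dbp and Npas2 held none of these letters, which says nothing on sites elsewhere in the genes.

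The values are reads over the exons of each gene as annotated in GENCODE M21. Among the activators, Arntl (ENSMUSG00000055116.8) lies on GRCm38 chromosome 7 from 113207465 to 113314126, plus strand. Clock (ENSMUSG00000029238.11) lies on GRCm38 chromosome 5 from 76209868 to 76304792, minus strand, and Npas2 (ENSMUSG00000026077.15) lies on GRCm38 chromosome 1 from 39193731 to 39363236, plus strand. Of the period genes, Per1 (ENSMUSG00000020893.17) lies on GRCm38 chromosome 11 from 69095217 to 69109960, plus strand. Per2 (ENSMUSG00000055866.9) lies on GRCm38 chromosome 1 from 91415982 to 91459324, minus strand, on the chromosome that also holds Npas2, and Per3 (ENSMUSG00000028957.12) lies on GRCm38 chromosome 4 from 151003652 to 151044665, minus strand. The REV-ERB genes are unlinked. Nr1d1 (ENSMUSG00000020889.11) lies on GRCm38 chromosome 11 from 98767932 to 98775333, minus strand, on the chromosome of Per1, and Nr1d2 (ENSMUSG00000021775.11) lies on GRCm38 chromosome 14 from 18204054 to 18239127, minus strand. Of the output genes, Dbp (ENSMUSG00000059824.12) lies on GRCm38 chromosome 7 from 45705088 to 45710203, plus strand, on the chromosome of Arntl, and Ciart (ENSMUSG00000038550.10) lies on GRCm38 chromosome 3 from 95878503 to 95882251, minus strand.

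Library totals ran from 82850628 to 92860628 counts, so the scarcest member, Ciart, still had between 478 and 1073 reads per library. Values below are CPM, the reads of a gene as a share of its library total on a fixed scale common to all libraries, after scaling by TMM, which corrects for the make-up of a library. Setd5 itself was at 69.5, 68.7 and 75.3 CPM in heterozygous libraries, in replicate order here and throughout, and at 111, 97.0 and 108 CPM in wild type ones, in the direction of the labels (log2 difference -0.56, edgeR adjusted p = 0.258, DESeq2 adjusted p = 3.08e-07). The 6 cortical projection neuron markers summed to between 3059.6 and 3400.04 CPM in every library. Of 7 markers of the suprachiasmatic nucleus and hypothalamus, Six6 had no read in any library, and the list summed to between 1.25 and 2.11 CPM. Heterozygous replicate 3 and wild type replicate 3 had 865 and 784 CPM of Xist, which female cells express, and the other 4 libraries less than 1 CPM. Wild type replicate 3 stood apart in its striatal markers, which summed to 930 CPM there and to between 130 and 400 CPM in the other 5 libraries. In bulk tissue, fewer cells of a type and less RNA per cell cannot be told apart.

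No clock gene passed a test between genotypes. In edgeR's quasi-likelihood test, adjusted by Benjamini-Hochberg over all genes, 0 of 10 members passed in either direction, where 0% of all genes tested passed. At an unadjusted p under 0.05 there were 0 of 10 members, where 5.83% of all genes passed. In DESeq2 0 of 10 members passed, where 0.0573% of genes were called higher and 0.165% lower. In 0 of 10 members were the groups free of overlap, where 11.7% of all genes were (5.88% higher, 5.85% lower). The log2 difference, heterozygous minus wild type, was above 0 for 5 members and below 0 for 5, where 49.9% of all genes were above and 50.1% below, with a median of 0.01 against 0.00 over all genes tested.

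**Figure D1:**
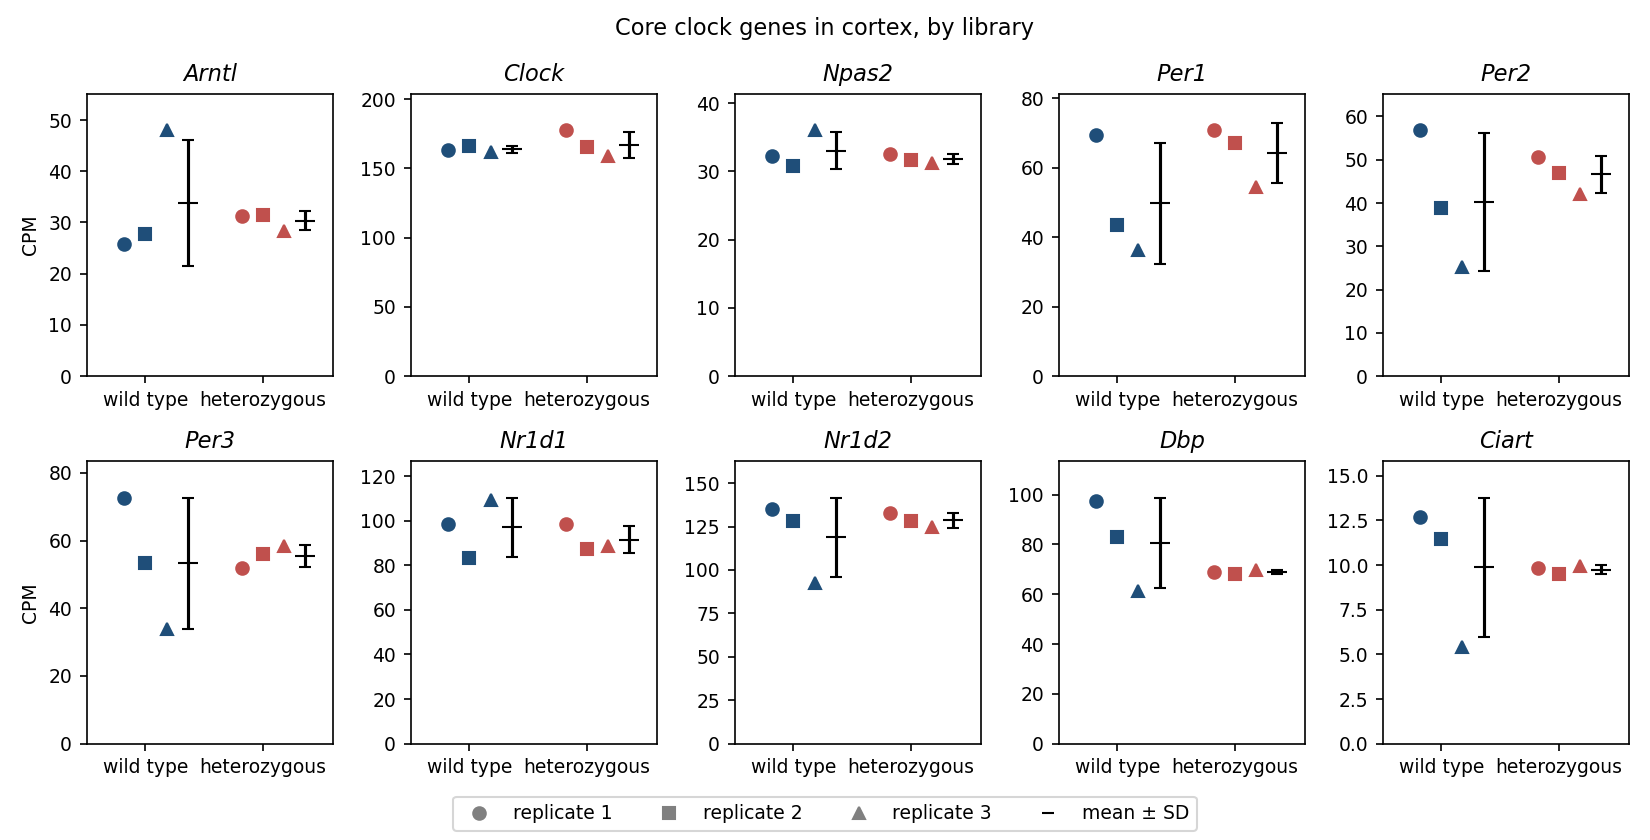
Level of each clock gene in CPM (y axis, from 0) in wild type (blue) and heterozygous (red) libraries, 3 each. Symbols give the replicate and black bars the mean ± SD. Wild type replicate 3 (blue triangle) is highest for Arntl, Npas2 and Nr1d1 and lowest for all 3 Per genes, Nr1d2, Dbp and Ciart. Heterozygous libraries have a smaller SD than wild type ones in every gene but Clock.

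Per unit of exon length the most abundant members were both REV-ERB genes and Dbp. Nr1d1 had a mean of 30.6 CPM per kilobase over the 6 libraries, Dbp one of 24.97 and Nr1d2 one of 22.9, and the ranges of neighbours in this order overlapped. Clock followed at 12.05 CPM per kilobase, with all of its libraries below the lowest of Nr1d2 (17.1), then Per1 at 10.1 with a range that overlapped that of Clock. Per2 had 7.42, Npas2 6.77, Per3 5.66, Ciart 4.34 and Arntl 4.27 CPM per kilobase. Neighbours in this lower stretch overlapped across libraries.

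Arntl, the activator without which the loop stops, was at 31.3, 31.5 and 28.3 CPM in heterozygous and at 25.9, 27.7 and 48.0 CPM in wild type libraries. The heterozygous libraries lay inside the wild type range, because wild type replicate 3 was above all other libraries and replicates 1 and 2 were below all of them. The difference on the log2 scale was -0.16 (standard error, SE, 0.20) with a 95% interval from -0.61 to 0.29 (edgeR adjusted p = 0.924). Without wild type replicate 3 it was 0.18, with an interval from 0.01 to 0.35 (edgeR adjusted p = 0.725), so the sign of the difference turned on that library.

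Clock, the histone-acetylating partner of ARNTL, was the steadiest member in the wild type libraries. It was at 177, 165 and 159 CPM in heterozygous and at 163, 166 and 162 CPM in wild type libraries, and its log2 difference was 0.03 with an interval from -0.11 to 0.17. Its wild type SD on the log2 scale was 0.02, a spread that only 1.37% of genes tested stayed under. In the heterozygous libraries its SD was 0.08, which 33.1% of genes stayed under. Npas2, a forebrain relative of Clock, was at 32.6, 31.7 and 31.2 CPM in heterozygous and at 32.2, 30.8 and 36.02 CPM in wild type libraries. Wild type replicate 3 was again the highest library, and the log2 difference was -0.05 (SE 0.08).

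Period genes encode the repressors that give the loop its delay. Per1 was at 70.8, 67.3 and 54.4 CPM in heterozygous and at 69.5, 43.6 and 36.5 CPM in wild type libraries. Heterozygous replicates 1 and 2 were level with wild type replicate 1, and heterozygous replicate 3 lay between that library and the 2 remaining wild type libraries. Per1 averaged 64.2 ± 8.62 CPM against 49.9 ± 17.4 CPM in wild type (SD, n = 3 each), and the log2 difference of 0.36 (SE 0.21) had a 95% interval from -0.10 to 0.83. Its edgeR adjusted p was 0.864, and the difference was 0.68 without wild type replicate 1 (edgeR adjusted p = 0.445) and 0.18 without wild type replicate 3 (edgeR adjusted p = 0.911).

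Per2, the period gene whose loss shortens or abolishes rhythms in mice, was at 50.6, 47.0 and 42.2 CPM in heterozygous and at 56.8, 38.7 and 25.2 CPM in wild type libraries. The wild type libraries spanned 2.26-fold and enclosed all heterozygous ones. Per3, which is not needed for rhythms, was at 52.0, 56.0 and 58.5 CPM in heterozygous and at 72.5, 53.5 and 33.9 CPM in wild type libraries. Here too wild type replicate 1 was the highest and wild type replicate 3 the lowest of the 6. Log2 differences were 0.21 (SE 0.23) for Per2 and 0.06 (SE 0.21) for Per3, and without wild type replicate 3 they were -0.03 and -0.18. Without wild type replicate 1 they were 0.55 and 0.345.

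Per1 is also switched on by neuronal activity and by glucocorticoids, so lists of both kinds were set beside it. Levels are given as the mean log2 CPM of a list relative to the wild type mean. For the 3 Per genes they were 0.33, 0.31 and 0.18 in heterozygous and 0.54, -0.01 and -0.53 in wild type libraries. For 20 immediate early genes, which neurons induce within minutes of activity, they were 0.83, 0.80 and 0.15 in heterozygous and 0.43, -0.14 and -0.29 in wild type libraries. The libraries high in immediate early genes, heterozygous replicates 1 and 2 and wild type replicate 1, were those highest in Per1. Of that list 11 genes were higher and 0 lower at an unadjusted p under 0.05 by edgeR, where 2.44% of all genes were higher and 3.38% lower. For 14 glucocorticoid-responsive genes levels were 0.17, 0.24 and 0.22 in heterozygous and -0.06, 0.25 and -0.18 in wild type libraries. In that list 7 genes were higher and 1 lower at the same unadjusted p. Among the higher was Fkbp5, a chaperone of the glucocorticoid receptor, at 33.5, 32.7 and 33.0 against 20.7, 28.8 and 24.3 CPM. The 1 lower was Pdk4, at 6.92, 9.23 and 9.02 CPM in heterozygous and 10.6, 13.1 and 11.3 CPM in wild type libraries. These lists were chosen with earlier results of these data known, and their part in the Per1 values was not tested.

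**Figure D2:**
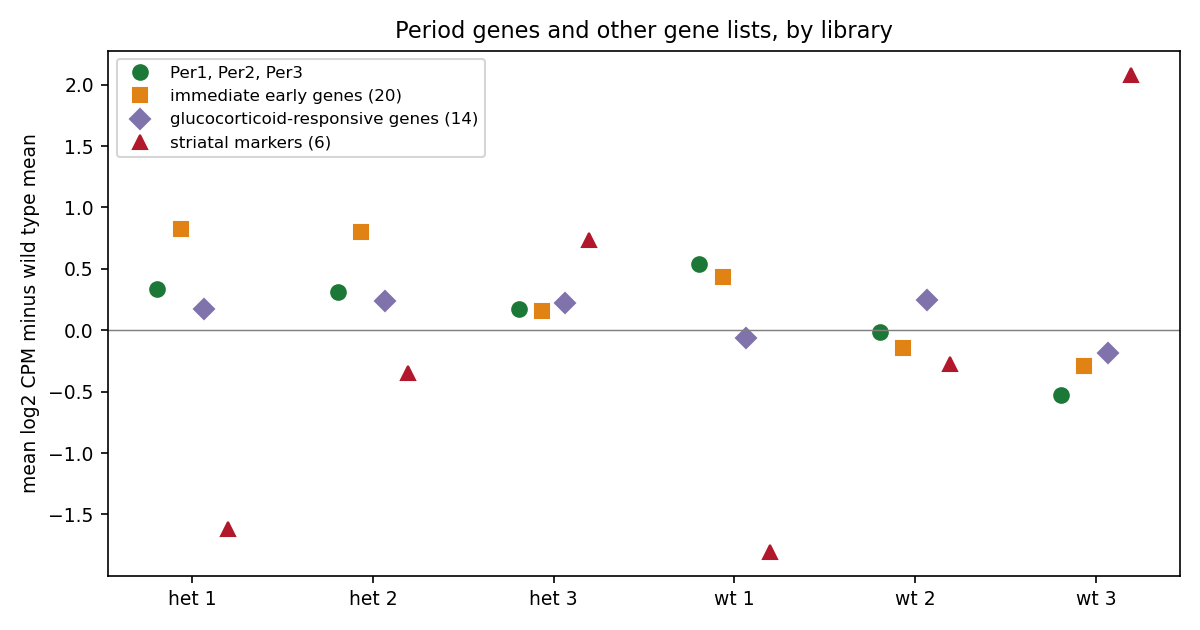
Mean log2 CPM relative to the wild type mean (y axis) of the 3 Per genes, 20 immediate early genes, 14 glucocorticoid-responsive genes and 6 striatal markers in each of the 6 libraries (x axis; het, heterozygous; wt, wild type). Each point is a list in a library. The Per genes run from 0.54 in wild type replicate 1 to -0.53 in wild type replicate 3, and the striatal markers from -1.80 to 2.08 in those same libraries.

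The REV-ERB genes parted from each other. Nr1d1 was at 98.5, 87.2 and 88.7 CPM in heterozygous and at 98.5, 83.3 and 109 CPM in wild type libraries, highest in wild type replicate 3. Nr1d2 was at 133, 128 and 125 CPM in heterozygous and at 135, 128 and 92.7 CPM in wild type libraries, lowest in that same library. Their log2 differences were -0.09 (SE 0.10) and 0.12 (SE 0.12), and without wild type replicate 3 they were 0.01 and -0.03. Nr1d1 shares 263 of its 3077 exon bases, or 8.55%, with Thra, a thyroid hormone receptor gene on the opposite strand. The library kit does not mark strand, so reads of the shared part cannot be told apart. Thra was at 412, 403 and 408 CPM in heterozygous and at 393, 362 and 428 CPM in wild type libraries, also highest in wild type replicate 3.

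Dbp, a transcription factor that carries the rhythm to output genes, was at 69.0, 67.9 and 69.5 CPM in heterozygous and at 97.4, 83.0 and 61.4 CPM in wild type libraries. Heterozygous libraries were within 1.02-fold of each other, while wild type libraries spanned 1.59-fold and lay on either side of them. Dbp averaged 68.8 ± 0.817 CPM against 80.6 ± 18.1 CPM in wild type (SD, n = 3 each), which put the log2 difference at -0.23 (SE 0.14) with an interval from -0.53 to 0.08 and an edgeR adjusted p of 0.872. Without wild type replicate 3 the difference was -0.39, with an interval from -0.56 to -0.22 and an edgeR adjusted p of 0.213. Without wild type replicate 1 it was -0.07 (edgeR adjusted p = 0.942). Dbp shares 539 of its 2993 exon bases, or 18.01%, with Sphk2, a sphingosine kinase gene on the opposite strand. Sphk2 was at 37.0, 35.8 and 38.7 CPM in heterozygous and at 49.3, 42.6 and 37.1 CPM in wild type libraries, so that wild type replicates 1 and 2 were its highest libraries too. How the shared reads were assigned is not given in the sources used here, and their part in the Dbp values was not tested.

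Ciart, a repressor of ARNTL and the member with 3 E-boxes in the stretch printed above, was at 9.86, 9.47 and 9.92 CPM in heterozygous and at 12.7, 11.5 and 5.42 CPM in wild type libraries. Its wild type libraries spanned 2.34-fold, the widest of the 10 members, against 1.05-fold in the heterozygous ones. The group means differed by a log2 difference of -0.02 (SE 0.25). Without wild type replicate 3 it was -0.31, with an interval from -0.51 to -0.11 (edgeR adjusted p = 0.505).

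**Figure D3:**
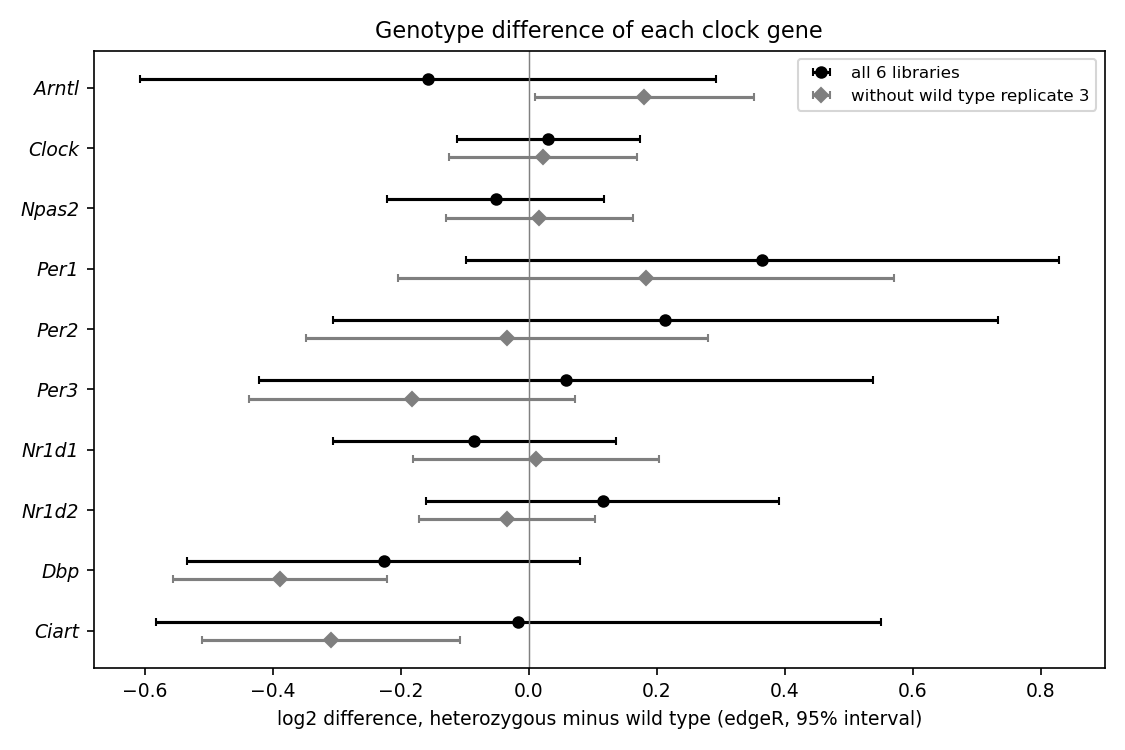
Log2 difference, heterozygous minus wild type, of each clock gene from edgeR's fit across all genes (x axis), with 95% intervals, for all 6 libraries (black circles) and without wild type replicate 3 (grey diamonds). With all libraries every interval includes 0. Without that library the points of Arntl, Npas2, Per2, Per3, Nr1d1 and Nr1d2 cross to the other side of 0, and the intervals of Arntl, Dbp and Ciart lie off 0.

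With wild type replicate 3 left out, a comparison of 3 against 2 libraries, 0 of 10 members passed edgeR's adjusted test. Arntl, Dbp and Ciart, 3 members, had an unadjusted p under 0.05, where 6.69% of all genes passed. In the same 3 genes the groups did not overlap, Arntl being higher and Dbp and Ciart lower in the heterozygous libraries, where 22.6% of all genes did not overlap (11.1% higher, 11.5% lower). The library was set aside because its values stood apart, so these counts describe how far the result rests on it. The result also moved with other wild type libraries. Without wild type replicate 1, 2 members (Per1 at 0.68 and Per2 at 0.55) had an unadjusted edgeR p under 0.05, where 1914 of 28850 genes did. Without wild type replicate 2, 1 member (Nr1d1 at -0.19) did, where 2551 of 28691 genes did. In both cases 0 of 10 members passed the adjusted test.

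The arms of the loop were also set against each other within a library. The arm index is the mean log2 CPM of Arntl, Clock and Npas2 (the morning arm) minus that of the 7 genes they drive (the evening arm), and a scaling factor common to a library cancels out of it. Heterozygous libraries had an index of 0.02, 0.03 and -0.00, and wild type libraries one of -0.33, 0.03 and 0.80. The heterozygous libraries and wild type replicate 2 were thus nearly level in the index, though not in each gene. Per1 was at 70.8 and 67.3 CPM in heterozygous replicates 1 and 2 and at 43.6 CPM in wild type replicate 2. By the index, wild type replicate 1 lay on the evening side of those libraries and wild type replicate 3 on the morning side. Single genes did not all go that way. In wild type replicate 3 Nr1d1, of the evening arm, was at its highest (109 CPM). Clock, of the morning arm, was within the range of the other libraries there. The group means were 0.02 ± 0.02 and 0.17 ± 0.58 (SD, n = 3 each), a difference of -0.15, and the groups overlapped. Without wild type replicate 3 the difference was 0.17. As a score over chosen members it was given no test.

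**Figure D4:**
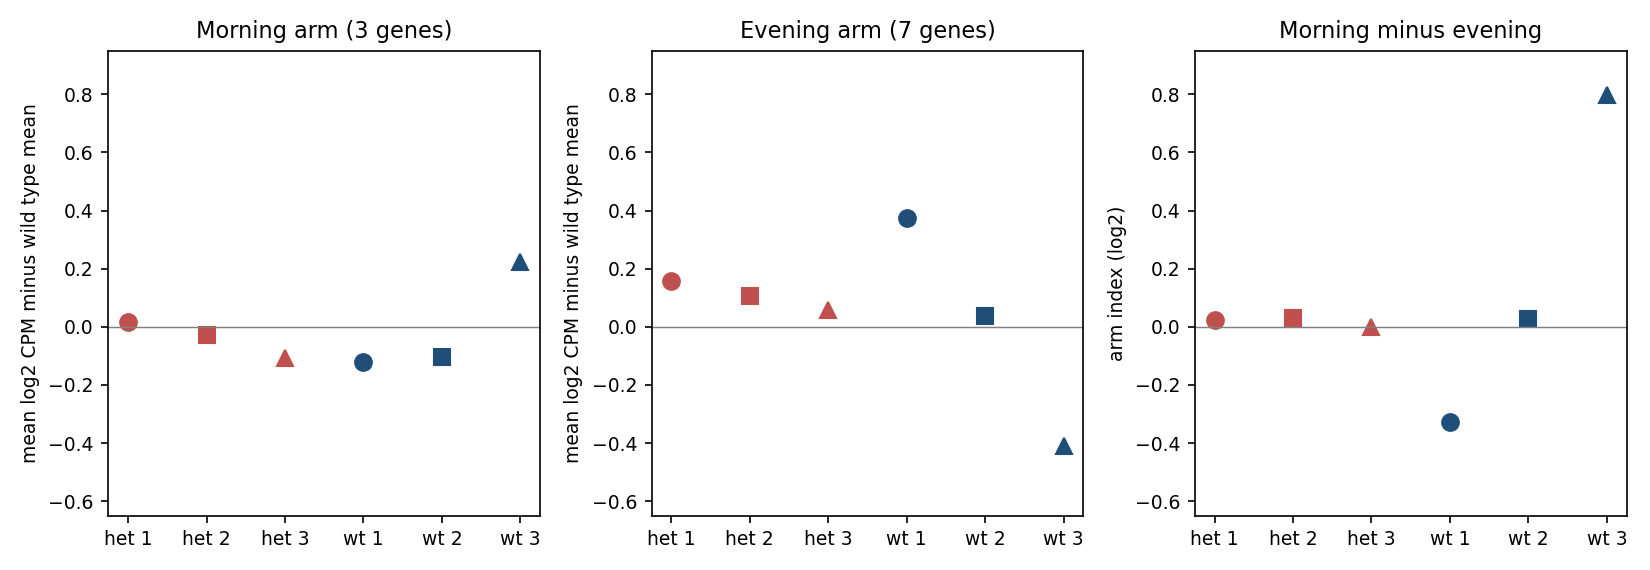
Morning arm (3 genes), evening arm (7 genes), each as mean log2 CPM relative to the wild type mean, and their difference, the arm index (y axes, log2), in each library (x axis; red, heterozygous, het; blue, wild type, wt). The index lies between -0.00 and 0.03 in the heterozygous libraries and runs from -0.33 to 0.80 in wild type.

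The ratio of Arntl to Per2, in CPM, put the same contrast in a single pair of genes. It was 0.618, 0.670 and 0.670 in heterozygous and 0.456, 0.715 and 1.91 in wild type libraries. Arntl to Dbp was 0.453, 0.464 and 0.406 in heterozygous and 0.266, 0.334 and 0.781 in wild type libraries. Only wild type replicate 3 had a higher CPM for Arntl than for Per2.

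Wild type replicate 3 was the highest of the 6 libraries for 3 members, where it was the highest for 24.3% of all genes, and the lowest for 6, where it was the lowest for 25% of all genes. It was therefore at an end of the range for 9 of 10 members, Clock being the exception, where it was so for 49.3% of all genes. Wild type replicate 1 was the highest for 5 members, where it was so for 15.2% of all genes, and the lowest for 1, where it was so for 15.3%, and so at an end for 6 of 10, where it was for 30.4%. The other 4 libraries were at an end for 0 to 2 members each, where they were so for between 27.4% and 36.2% of all genes. Wild type replicate 3 also had the most striatal RNA, and wild type replicate 1 the least. Summed striatal markers were at 189, 240 and 400 CPM in the heterozygous libraries, where the arm index was level. They were at 130, 233 and 930 CPM in the wild type libraries, whose order in the index was the same. All 6 striatal markers were highest in wild type replicate 3, with Adora2a, an adenosine receptor of striatal neurons, at 59.5 CPM there and between 1.48 and 16.5 CPM elsewhere. The part of striatal tissue in the clock values was not tested.

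The spread of the clock genes was wider in wild type than in heterozygous libraries. The SD of log2 CPM was larger in wild type for 9 of 10 members, Clock being the exception, where it was so for 64.1% of all genes. The median SD of the members was 0.41 in wild type and 0.08 in heterozygous libraries, against 0.19 and 0.13 over all genes tested. Over the genes with a mean of at least 5 CPM, the range in which the members lie, the medians were 0.11 and 0.07. The difference in spread was not tested, and with 3 libraries a group it rests on wild type replicates 1 and 3.

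Whether libraries rich in Arntl were poor in the genes it drives was examined over the 6 libraries in 9 relations, each with two-sided exact permutation tests and Benjamini-Hochberg adjustment over the 9. Ciart ran opposite to Arntl with Pearson's r = -0.99 (exact permutation p = 0.00139, the smallest the 720 orders can give, adjusted 0.0125) and Spearman's rho = -1 (exact permutation p = 0.00278, adjusted 0.0125). Without wild type replicates 3 and 1, the libraries farthest from the median of Arntl, r was -0.77 over 4 libraries. Dbp had r = -0.76 (exact permutation p = 0.0917, adjusted 0.138) and rho = -1 (exact permutation p = 0.00278, adjusted 0.0125), with r = -0.73 over those 4 libraries. For Dbp and Ciart, then, the order of the 6 libraries was the exact reverse of that for Arntl. Taken as deviations from each genotype's mean, r was -0.96 for Dbp and -0.99 for Ciart.

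Per3 did not pass, with r = -0.95 (exact permutation p = 0.0111, adjusted 0.05, which is not under the threshold of 0.05) and rho = -0.71 (exact permutation p = 0.136, adjusted 0.306), and r was -0.28 over the 4 libraries. Nor did the remaining relations pass after adjustment. Per2 had r = -0.84 (exact permutation p = 0.075, adjusted 0.135; rho = -0.49, exact permutation p = 0.356, adjusted 0.533) and Nr1d2 r = -0.94 (exact permutation p = 0.0514, adjusted 0.122; rho = -0.71, exact permutation p = 0.136, adjusted 0.306). Over the 4 other libraries r was 0.94 for Per2 and 0.61 for Nr1d2, so these negative relations rested on wild type replicates 3 and 1. The same was so for Per1, with r = -0.62 over 6 libraries (exact permutation p = 0.157, adjusted 0.177; rho = -0.31, exact permutation p = 0.564, adjusted 0.725) and 0.95 over 4. Npas2 went with Arntl at r = 0.90 (exact permutation p = 0.0542, adjusted 0.122; rho = 0.54, exact permutation p = 0.297, adjusted 0.533), and Nr1d1 at r = 0.69 (exact permutation p = 0.142, adjusted 0.177; rho = 0.26, exact permutation p = 0.658, adjusted 0.741). Over the 4 other libraries r was 0.85 for Npas2 and 0.63 for Nr1d1. Over the 5 libraries without wild type replicate 3 alone it was 0.25 for Npas2 and -0.07 for Nr1d1. Clock had r = -0.09 (exact permutation p = 0.817, adjusted 0.817; rho = -0.09, exact permutation p = 0.919, adjusted 0.919).

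Further genes of the clock were read from a list of 28, which holds the Cry repressors, the ROR receptors that compete with REV-ERB, relatives of DBP, and the kinases and ubiquitin ligases that set the life of PER and CRY. By edgeR 0 of 28 passed in either direction, and at an unadjusted p under 0.05 there were 0 higher and 1 lower, where 2.44% and 3.38% of all genes were. The median log2 difference was 0.01. That single gene was Rorb, a ROR receptor found in layer 4 of the cortex, at 102, 69.3 and 76.1 CPM in heterozygous and at 95.3, 102 and 109 CPM in wild type libraries. Heterozygous replicate 1 lay within the wild type range, and the log2 difference was -0.31 (SE 0.13, edgeR adjusted p = 0.848). It was -0.19 without heterozygous replicate 2 and -0.49 without heterozygous replicate 1.

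Cry1, the repressor that closes the loop with PER, was at 21.4, 22.0 and 17.7 CPM in heterozygous and at 19.2, 18.1 and 14.6 CPM in wild type libraries. Its log2 difference was 0.23 (SE 0.12) and wild type replicate 3 was the lowest library, as it was for Per2. Bhlhe40, a repressor that binds E-boxes and also responds to neuronal activity, was at 130.0, 131 and 93.6 CPM in heterozygous and at 120.5, 84.3 and 68.7 CPM in wild type libraries. Heterozygous replicates 1 and 2 and wild type replicate 1 were its highest libraries, as they were for Per1. Its log2 difference was 0.37 (SE 0.19). Hlf, a relative of DBP, differed by 0.14 (SE 0.07), Nfil3, which opposes DBP at D-boxes, by 0.23 (SE 0.13), and Usp2, a rhythmic deubiquitinase, by -0.12 (SE 0.07). None of these passed the test, with edgeR adjusted p from 0.848 for Rorb to 0.870 for Usp2.

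The spread between libraries was smaller in this wider list. The median SD of log2 CPM was 0.12 in wild type and 0.06 in heterozygous libraries for the 28 genes, close to the medians over genes of at least 5 CPM given above. Wild type replicate 3 was the highest library for 9 of the 28 genes and the lowest for 8, where it was the highest for 24.3% and the lowest for 25% of all genes.

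Genes were ranked by how far their levels went like the arm index over the 6 libraries, by Pearson's r. The ranking took 11600 genes with a mean of at least 5 CPM. Members were left out, as were predicted models whose symbols are Gm plus digits or end in Rik. Among the highest were Letm1, a mitochondrial cation exchanger, Prkce, a protein kinase C, B3gnt2, a glycosyltransferase, and AC109138.6, with r from 0.990 to 0.999. The lowest were Btg3, an antiproliferative factor, Plpp5, a lipid phosphatase, Bmpr1a, a bone morphogenetic protein receptor, Sparc, a matrix-binding glycoprotein, and Zfp846, with r from -0.997 to -0.983. Sparc was at 235, 239 and 242 CPM in heterozygous and at 259, 240 and 169 CPM in wild type libraries. In each of these named genes wild type replicates 1 and 3 were the opposite ends of the range, as in the index by which they were picked. Of the 28 further clock genes, Nampt, a rhythmic enzyme of NAD synthesis, had the most negative r, at -0.869. These are descriptions over 6 libraries that share those ends.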

How the data were processed

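The authors deposited 1 table of raw counts of reads per gene for each of 6 libraries of polyadenylated RNA (TruSeq RNA Library Prep Kit v2, per the labels' protocols). Per the submitters' processing notes, the tools were Bowtie2 2.3.4.3, FastQC, DESeq2 and featureCounts, and the builds mm10 and GRCm38.p6. Settings for strand and shared reads: not given in the sources used here. All 55450 identifiers matched GENCODE M21, which gave symbols, positions and exon lengths. Every pair of libraries differed beyond sampling noise (chi-square per gene from 10.9 to 85.2).

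Genes were filtered with filterByExpr (minimum count 10, minimum total 15), scaled by TMM and tested by quasi-likelihood (R 4.3.3, edgeR 4.0.16: glmQLFit, glmQLFTest), without covariates, with Benjamini-Hochberg adjustment and a threshold of 0.05. The test was run first on simulated data. Log2 CPM used a prior count of 1. Alternatives used DESeq2 1.42.0, limma 3.58.1, other scalings and filters, and each library left out. A sex term and leaving out the 2 libraries with high Xist counts were chosen after seeing the data. The members, lists and tests were chosen with earlier results of these data known. Genes named were Setd5, the members, 6 further clock genes with the smallest p, the 5 most like the arm index in each direction, and genes overlapping a member's exons; single examples of other lists were chosen after their values were seen. Some genes that this rule names are not reported here.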

Additional observations from a re-analysis of the deposited data

How the results depend on the processing

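No clock gene passed the adjusted test under any of the 16 other settings run, by edgeR, DESeq2 or limma-voom, with each library left out, or with a sex term. Over all genes, 0 were called by edgeR, against 6 (1 higher, 5 lower) with every gene that had a count, 62 (16 higher, 46 lower) by DESeq2 and 2 by limma-voom with quality weights. With 1 library left out there were 0 to 2. Unadjusted, 1628 genes were under 0.05 by edgeR, 1552 by DESeq2 and 1620 by limma-voom, which called 0.

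Signs of small differences were not stable. With 1 library left out the log2 difference ran from -0.32 to 0.18 for Arntl, -0.019 to 0.062 for Clock, -0.10 to 0.016 for Npas2, -0.034 to 0.55 for Per2, -0.18 to 0.345 for Per3, -0.19 to 0.010 for Nr1d1, -0.034 to 0.22 for Nr1d2 and -0.31 to 0.21 for Ciart. Per1 stayed above 0 (0.18 to 0.68) and Dbp below 0 (-0.39 to -0.07). Without the 2 libraries with high Xist counts the difference was 0.23 for Arntl, 0.030 for Npas2, -0.22 for Per3, 0.031 for Nr1d1 and -0.013 for Nr1d2. Ciart was at 0.081 by limma-voom and 0.062 with a sex term. With quality weights Arntl was at 0.079 and Per3 at -0.10. At an unadjusted p under 0.05 there was 1 member in that limma-voom fit (Dbp at -0.34), where 2440 of 27939 genes were. By edgeR there was 1 with a sex term (Per1 at 0.38, 2030 of 27939 genes). There was 1 with every gene that had a count (Per1 at 0.36, 2151 of 42216 genes). Without the 2 high-Xist libraries there were 3 (Arntl, Dbp at -0.40 and Ciart at -0.32, 2211 of 28025 genes). The correlation of Arntl with Clock was 0.095 with library totals as the scale. The arm index difference ran from -0.40 to 0.17 with 1 library left out, was 0.18 without the 2 high-Xist libraries, -0.05 without Per1 and Per2, -0.12 with Tef, Hlf and Bhlhe41 added and -0.21 with Arntl alone as the morning arm. The cause was not tested.

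No paired analysis was possible because replicates were numbered by accession order only, which pairs no libraries across genotypes. Depth was not limiting, with at least 478 reads per member and library.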
